A study of Mus musculus with 15 samples.

Results

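Accessible chromatin at 40 imprinted genes was examined in sorted haematopoietic stem cells (HSC) of mice carrying altered alleles of Mtor, the gene of the mTOR kinase. The genes were chosen by name, as known members of imprinted domains, and not by their peaks, although earlier results of these data were known. All 40 were matched by symbol among the 49943 genes that RefSeq annotates on GRCm38.p6 (mm10), as 33 protein-coding genes and 7 long non-coding RNAs. They were grouped into 18 imprinted domains. A peak counted as near a gene when it touched the gene body or the 20 kb on either side. By this rule 29 of 17316 WT peaks, 40 of 19189 KO peaks and 61 of 28391 KI peaks lay near the imprinted genes.

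The peaks came from ATAC-seq, in which a transposase inserts adapters into accessible DNA, with 1 library for each of 3 genotypes. WT control animals were Mx1-Cre-/-;mTORflox/flox, KO animals Mx1-Cre+/-;mTORflox/flox and KI animals Mx1-Cre+/-;mTORflox/knockin. All were adult and received poly(I:C), which induces the Mx1 promoter that drives Cre in blood cells and in other interferon-responsive cells. The controls thus carried floxed Mtor and the same inducer but no Cre, so Cre itself and the Mtor alleles cannot be told apart in comparisons with WT, and the number of animals pooled per library is not given. WT and KO are labelled as re-analysed and KI is not, so a difference in handling and the KI alleles cannot be told apart either. With 1 library per genotype there was no replicate error and no test between genotypes. Peak presence and the percentile of each peak's score within its own list are given instead.

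The sorted cells were checked through peaks within 1 kb of either annotated end of marker genes, called gene-end peaks. Of 9 HSC markers, 6 had one in WT, 3 in KO and 5 in KI, and none of the lists had one at Ly6a, Slamf1 or Gata2. Erythroid markers (4 genes) had 0 in WT, 2 in KO and 2 in KI, granulocyte and monocyte markers (5) 0, 0 and 3, megakaryocyte markers (4) 2, 2 and 4, B lymphoid (3) 1, 0 and 2, T and NK (4) 0, 0 and 1, and stromal and endothelial (3) 0, 1 and 2. The highest percentile of each list was 71.0 for the megakaryocyte Pf4, 70.4 for the B lymphoid Cd79a, 66.7 for the erythroid Epor, 30.0 for the myeloid Csf1r and 14.9 for the T lymphoid Thy1, all in KI, and 50.7 for the stromal Col1a1 in KO. Klf1, Elane, Pax5 and Cd3e had no gene-end peak in any list. HSC markers thus were covered least in KO. Markers of the other cell types were covered in KI as often as in KO for the erythroid list and most often in KI for the other lists. KI also had the longest peak list, 28391 peaks beside 17316 (WT) and 19189 (KO). Coverage of gene ends over all genes was likewise highest there, at 29.4%, beside 24.3% (WT) and 24.5% (KO). Whether list length accounts for the marker counts was not tested.

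At an imprinted locus only the copy from 1 parent is transcribed. A differentially methylated region (DMR), methylated in the egg or the sperm, marks the parental origin and acts as the control region of the domain, often as the promoter of a non-coding RNA or as a binding region for the insulator protein CTCF. In HSC, imprinted growth regulators such as H19, Igf2, Meg3 and Cdkn1c are known for their link to stem cell quiescence. Peak lists do not separate the parental copies, so each peak is the sum of both.

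A few starts are shown first, chosen to cover control regions and other imprinted starts, of which some differed between libraries and some did not. Each is given as 300 bases from 250 before to 50 after the RefSeq start (GRCm38.p6), 5′ to 3′. CpG dinucleotides, the sites of DNA methylation, are in capitals. The first 4 lay under a peak of 1 or both mutant libraries and under none in WT. The Gnas starts are neighbours of which the first differed between the lists and the second did not, and Mest and Nap1l5 carry the hexamer of the imprint protector ZFP57 and had no peak in any list.
Kcnq1ot1 start, chr7:143296498-143296797, minus strand: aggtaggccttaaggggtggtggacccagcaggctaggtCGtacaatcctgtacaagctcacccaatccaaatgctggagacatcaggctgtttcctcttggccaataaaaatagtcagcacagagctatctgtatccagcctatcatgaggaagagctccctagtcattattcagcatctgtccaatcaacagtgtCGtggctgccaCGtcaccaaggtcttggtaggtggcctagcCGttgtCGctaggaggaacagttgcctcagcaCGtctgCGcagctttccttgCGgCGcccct
Ndn start, chr7:62348027-62348326, plus strand: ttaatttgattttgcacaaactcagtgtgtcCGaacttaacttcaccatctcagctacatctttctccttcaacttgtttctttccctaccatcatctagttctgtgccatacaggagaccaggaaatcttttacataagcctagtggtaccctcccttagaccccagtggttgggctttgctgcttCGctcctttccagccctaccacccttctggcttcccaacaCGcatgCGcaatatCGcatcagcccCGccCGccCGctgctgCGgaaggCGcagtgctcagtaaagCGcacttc
Airn start, chr17:12741061-12741360, plus strand: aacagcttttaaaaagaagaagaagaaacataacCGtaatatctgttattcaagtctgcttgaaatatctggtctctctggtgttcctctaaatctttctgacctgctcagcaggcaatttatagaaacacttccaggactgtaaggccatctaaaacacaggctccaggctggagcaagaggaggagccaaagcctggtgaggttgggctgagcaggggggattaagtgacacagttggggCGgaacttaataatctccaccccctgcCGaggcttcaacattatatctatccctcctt
Zrsr1 start, chr11:22971755-22972054, plus strand: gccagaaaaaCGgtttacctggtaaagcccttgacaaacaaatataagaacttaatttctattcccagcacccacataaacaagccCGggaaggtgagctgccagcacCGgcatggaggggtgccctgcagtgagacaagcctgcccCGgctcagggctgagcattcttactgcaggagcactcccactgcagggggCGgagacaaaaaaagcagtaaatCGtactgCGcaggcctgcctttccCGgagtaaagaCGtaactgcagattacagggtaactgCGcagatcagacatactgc
Gnas exon 1A start, chr2:174327499-174327798, plus strand: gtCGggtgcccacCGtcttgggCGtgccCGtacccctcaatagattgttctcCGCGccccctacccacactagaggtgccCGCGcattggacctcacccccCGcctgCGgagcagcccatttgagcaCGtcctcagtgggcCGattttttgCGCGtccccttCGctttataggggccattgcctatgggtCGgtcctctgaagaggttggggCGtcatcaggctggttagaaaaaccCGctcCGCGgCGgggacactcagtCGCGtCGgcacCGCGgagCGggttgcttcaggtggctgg
Gnas exon 1 start, chr2:174329756-174330055, plus strand: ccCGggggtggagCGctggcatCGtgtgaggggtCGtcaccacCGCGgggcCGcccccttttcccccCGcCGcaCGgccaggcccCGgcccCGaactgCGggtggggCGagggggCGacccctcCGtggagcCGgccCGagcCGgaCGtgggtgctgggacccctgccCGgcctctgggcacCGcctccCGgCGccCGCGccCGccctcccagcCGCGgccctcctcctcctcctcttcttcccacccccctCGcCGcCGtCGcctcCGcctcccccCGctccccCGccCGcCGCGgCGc
Mest downstream start, chr6:30737800-30738099, plus strand: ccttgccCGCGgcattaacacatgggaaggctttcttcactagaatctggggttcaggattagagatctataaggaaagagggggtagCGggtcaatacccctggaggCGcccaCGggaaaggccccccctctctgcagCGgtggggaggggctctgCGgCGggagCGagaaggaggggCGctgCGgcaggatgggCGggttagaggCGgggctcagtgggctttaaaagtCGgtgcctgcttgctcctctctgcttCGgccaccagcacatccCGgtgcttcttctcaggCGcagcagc
Nap1l5 start, chr6:58907077-58907376, minus strand: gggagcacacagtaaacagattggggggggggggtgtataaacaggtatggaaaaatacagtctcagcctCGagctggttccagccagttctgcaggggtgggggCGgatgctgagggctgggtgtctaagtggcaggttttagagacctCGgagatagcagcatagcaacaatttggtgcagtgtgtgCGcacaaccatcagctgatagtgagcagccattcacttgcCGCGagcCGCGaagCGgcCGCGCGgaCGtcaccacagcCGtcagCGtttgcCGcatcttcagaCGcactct

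The Kcnq1ot1 window holds 9 CpG and was fully covered by the KO and KI peaks. The Ndn window holds 11 CpG, with 229 bases under the KO and 133 under the KI peak. The Airn window holds 3 CpG and had 164 bases under the KI peak, and the Zrsr1 window 10 CpG and 162 bases under the KI peak. The exon 1A window of Gnas holds 27 CpG and was fully covered in WT and KI, whereas the exon 1 window, with 40 CpG, was fully covered in all 3 libraries. The windows of Mest and Nap1l5 hold 17 CpG each.

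Over all 40 genes, 21 had a nearby peak in each of the 3 lists (52.5%, against 42.8% of all genes). Another 5 had one in both mutants but not in WT (12.5%, against 4.55%): Kcnq1ot1, Slc22a18, Ndn, Snrpn and Peg13. A nearby peak in KI alone was found for 5, Igf2, Meg3, Mirg, Peg3 and Usp29 (12.5%, against 6.62%), and in KO alone for 2, Phlda2 and Rasgrf1 (against 1.37%). H19, Rian, Rtl1, Zim1, Plagl1, Mest and Ascl2 had no peak in any list (17.5%, against 39.9%). No imprinted gene had a nearby peak in WT alone.

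As counts, 21 genes had a nearby peak in WT, 28 in KO and 31 in KI, or 52.5%, 70.0% and 77.5%. Of all genes in the table, 47.6% had one in WT, 49.1% in KO and 57.2% in KI, and of the protein-coding genes 66.2%, 67.3% and 74.4%. The WT share of the imprinted genes thus lay between those backgrounds. Both mutant shares lay above the all-gene shares but close to the protein-coding ones (70.0% beside 67.3% in KO, 77.5% beside 74.4% in KI). Several imprinted genes share their peaks with a neighbour, so these are not independent counts. Per length, the windows of the imprinted genes (4 Mb in all) held 7.26 peaks per Mb in WT, 10 in KO and 15.3 in KI. Windows of all genes held 8.70, 9.54 and 14 peaks per Mb, and those of protein-coding genes 10.5, 11.4 and 16.6. The imprinted windows thus were below both backgrounds in WT and between them in KO and KI.

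Gene-end peaks were fewer. They were found at 8 imprinted genes in WT (20%), 10 in KO (25%) and 14 in KI (35.0%), against 24.3%, 24.5% and 29.4% of all genes and 44.2%, 44.1% and 51.4% of protein-coding genes. Copg2, Cd81, Ube3a, Trappc9 and Tspan32 had one in all lists. At 22 genes, among them Igf2, Igf2r, Dlk1, Meg3, Gnas, Snrpn and Mest, no list had a gene-end peak.

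**Figure D1:**
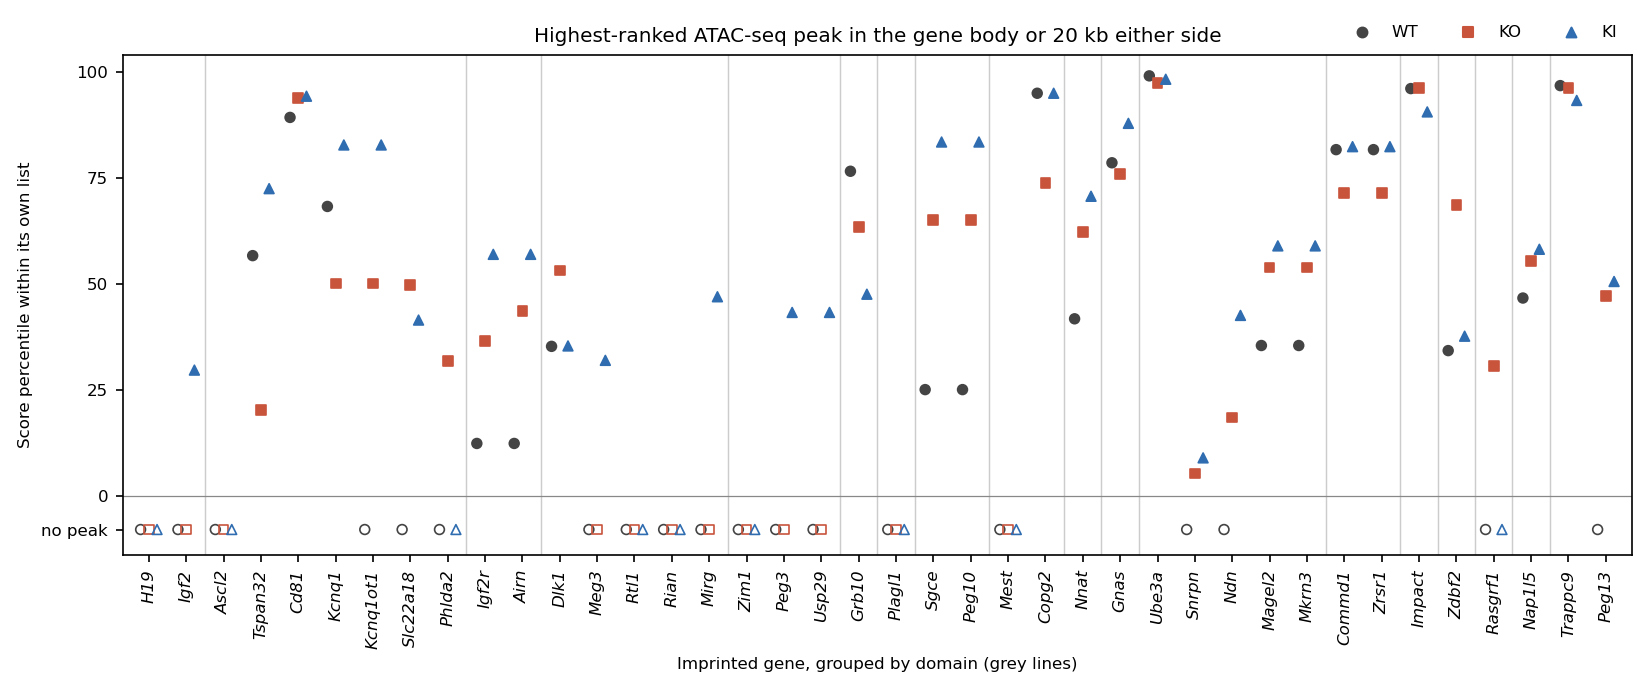
Each imprinted gene is on the horizontal axis, grouped by domain, and the vertical axis gives the score percentile of its highest-ranked nearby peak within its own list, with 1 point per library; open symbols mark no peak. Ube3a ranks at 99.0 in WT, 97.4 in KO and 98.2 in KI, while H19, Rian, Rtl1, Zim1, Plagl1, Mest and Ascl2 have no peak in any library.

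The score is the peak caller's own value for a peak, higher for a stronger call. The percentile is the share of a list with a score no higher than that of the peak, so each list has a median of 50. Near the imprinted genes the WT peaks ranged from 12.3 to 99.0 with a median of 56.6. The KO peaks had a median of 53.5 (2.6 to 97.4) and the KI peaks of 44.8 (6.9 to 98.2). Above percentile 75 were 10 of 29 WT peaks (34.5%), 7 of 40 KO peaks (17.5%) and 14 of 61 KI peaks (23.0%), against 25% of any whole list by construction. These peaks had a median width of 704 bp (WT), 528 bp (KO) and 425 bp (KI), and the whole lists of 590, 514 and 477 bp.

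The control regions were examined through 22 windows placed relative to RefSeq gene starts from general knowledge of each domain, 14 of them 1 kb either side of a start. They are approximate. Of the 22, 12 had a peak in at least 1 list. WT peaks touched 4 windows, KO peaks 6 and KI peaks 9. At equal list size the KI count was 5, without the KI peaks at Airn, Zrsr1, the Rasgrf1 upstream region and the Nesp antisense stretch of Gnas. The Kcnq1ot1, Ndn and Peg13 windows and the Nesp antisense stretch of Gnas were covered in KO and KI and not in WT. Of all regions of the merged lists, 10.7% had this pattern, and no such share was computed over windows like these elsewhere. Airn, Peg3 and Usp29, Zrsr1 and the Rasgrf1 upstream region were covered in KI alone, and the internal Grb10 region in WT and KO. The Peg10 and Impact start windows were covered in WT alone, which depended on the window edge. Widened by 1 kb, the Peg10 window was covered in all lists and the Impact window in WT and KI. The Impact window was set at the start, although the DMR of that gene lies in its first intron. The window over exons 1A and 1 of Gnas was covered in all lists, in KO by a peak at exon 1 and none at exon 1A. Among the 14 start windows 2 had a WT peak, 2 a KO peak and 5 a KI peak, whereas 33.9%, 33.8% and 39.9% of all 32851 RefSeq starts had one within the same distance. The windows with no peak in any list were the H19 control region, the IG-DMR between Dlk1 and Meg3, the Plagl1, Mest, Nnat, Snrpn, Magel2, Mkrn3 and Nap1l5 starts and the Zdbf2 upstream region.

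**Figure D2:**
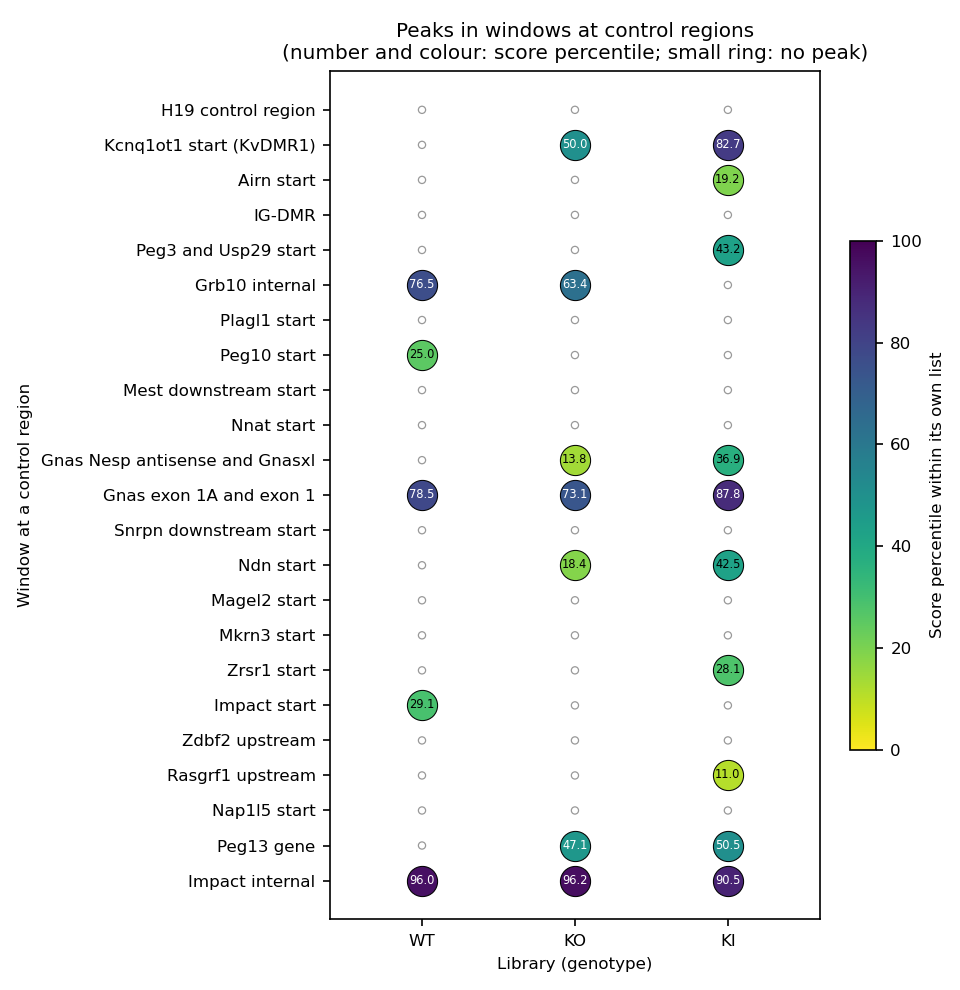
Rows are the windows at control regions and columns the 3 libraries; a filled circle marks a peak, with its score percentile within its own list as number and colour, and a small ring marks no peak. KO and KI share covered windows at Kcnq1ot1, the Nesp antisense stretch of Gnas, Ndn and Peg13, where WT has none. This pattern is that of 10.7% of all regions of the merged lists, and no share over like windows was computed. The Ndn, Magel2 and Mkrn3 rows are gene starts in a domain controlled from the Snrpn promoter. The lowest row, Impact internal, was added after the peaks had been seen.

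In the Kcnq1 domain on chromosome 7, Kcnq1ot1 is a paternally transcribed antisense RNA whose promoter, KvDMR1, is the control region and is methylated on the maternal copy. Its start (143296547) had no WT peak. The KO peak, chr7:143296437-143296947, scored 87.24 and stood at percentile 50, and the KI peak, chr7:143296242-143296886, scored 215.15 and stood at 82.7. They reached from -400 to 110 bp and from -339 to 305 bp of the start. This KI peak was the second highest-ranked region near the imprinted genes that WT lacked. With lists of equal size the start was still covered in KO and KI and not in WT, and with scores of at least 100 it was covered in KI alone. Gene-end peaks at the 4 erythroid markers numbered 2 in KO, 2 in KI and 0 in WT (Epor at 63.0 and 66.7, Car1 at 57.8 and 36.1), while Klf1 and Alas2 had none in any list. The megakaryocyte Itga2b (19.3 in KO and 16.3 in KI) and the stromal Col1a1 (50.7 and 48.7) were also covered in KO and KI and not in WT. The rest of their lists differed: Gp1ba and Pdgfrb were covered in KI alone, Gp9 in WT and KI, Pf4 in all lists and Cdh5 in none. No marker of the remaining lists was covered in KO and KI without WT. Epor, Car1, Itga2b and Col1a1 thus had the same presence pattern as Kcnq1ot1, Ndn and Peg13. Their part in the result was not tested.

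The start of Cd81, a tetraspanin of lymphocyte and other cell membranes, likewise had a peak in KO (chr7:143052641-143053514, percentile 55.7) and in KI (chr7:143052487-143053236, 66.2) and none in WT. It also lies at an end of the neighbouring transcript R74862. All 3 libraries had a stronger peak less than 1 kb past the other end of Cd81. That peak, which also touches an end of Tssc4, ranked at 89.2 in WT, 93.8 in KO and 94.2 in KI. The start of Tspan32, a tetraspanin of blood cells, was covered in WT (56.6), KO (20.1) and KI (72.4).

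Within Kcnq1, a potassium channel gene, a peak in the gene body at chr7:143180639-143181287 in WT (percentile 68.2) had counterparts in KO (15.6) and KI (46.1). A second peak in the body was present in WT (chr7:143373203-143373686, 44.2) and KI (chr7:143373228-143373787, score 98.23, 52.7) and had no KO counterpart. Slc22a18, a transporter gene, had a peak at -12894 bp in KO (49.6) and -12845 bp in KI (41.4) of its lower annotated end. That peak lies at an end of Cdkn1c, the maternally expressed cell cycle inhibitor of quiescent HSC, and was absent from WT. Phlda2, a maternal brake on placental growth, had in KO alone a peak at percentile 31.8, which lies inside Slc22a18. Ascl2, a transcription factor gene, had none.

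The Snrpn-Ube3a domain, the mouse counterpart of the Prader-Willi and Angelman region, is controlled from the Snrpn promoter. Of the 4 RefSeq starts of Snrpn none had a peak within 1 kb in any library. The 2 regions within its long gene model ranked at 5.2 in KO and 6.9 in KI for the first, and at 8.9 in KI alone for the second. Ndn encodes necdin, a paternally expressed member of the melanoma antigen family that restrains cell division. It had no WT peak, a KO peak at chr7:62348098-62348551 (score 59.95, percentile 18.4) and a KI peak at chr7:62348194-62348526 (82.28, 42.5), both across the start. The starts of Magel2 and Mkrn3 had none. The interval between those genes held a peak in WT (35.4), KO (53.8) and KI (58.9).

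Ube3a, an E3 ubiquitin ligase that is imprinted in neurons and expressed from both copies in most other cells, had the highest-ranked peak of the set in each library. It covered the start with scores of 445.09 in WT (percentile 99.0), 326.59 in KO (97.4) and 489.05 in KI (98.2). The lists did not differ there in presence.

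At Gnas, which encodes the stimulatory G protein alpha subunit, alternative first exons are imprinted in different directions. The exon 1A start, whose DMR is methylated on the maternal copy, was covered in WT (chr2:174327146-174328044, percentile 34.1) and in KI (chr2:174327138-174328071, 27.2) and had no KO peak. Its window also touches an end of Gm30189. The main exon 1 start was covered in WT (78.5), KO (73.1) and KI (87.8), by peaks of 1952, 1816 and 2295 bp. The Nesp antisense stretch had a weak KO peak (13.8) and a weak KI peak (36.9) from 11002 to 11446 bp inside the gene, and none in WT. A peak near the 3′ end of the gene was present in WT (68.6), KO (75.9) and KI (77.6). Exon 1 thus was covered in every library, and the 2 weaker peaks upstream of it were each missing from 1 library.

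Grb10 encodes an adaptor that inhibits insulin receptor signalling and is itself a substrate of mTORC1. Its internal control region, methylated on the maternal copy, was examined through the approximate window chr11:12023420-12027420. A WT peak lay within it, chr11:12025632-12026594 (963 bp, score 160.87, percentile 76.5), 10826 to 11788 bp inside the main start. The KO list had a shorter peak there, chr11:12025717-12026095 (379 bp, 108.4, 63.4), and the KI list had none. This was the only region near the imprinted genes with a WT and a KO peak and no KI peak. Over all merged regions such regions made up 1.31%, and near the imprinted genes 1 of 72 (1.39%). At the main start KO (27.3) and KI (28.6) had a peak and WT had none, with a further weak KI peak beside it (21.6). The main start of Grb10 has the highest CpG number of the set, 45.

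**Figure D3:**
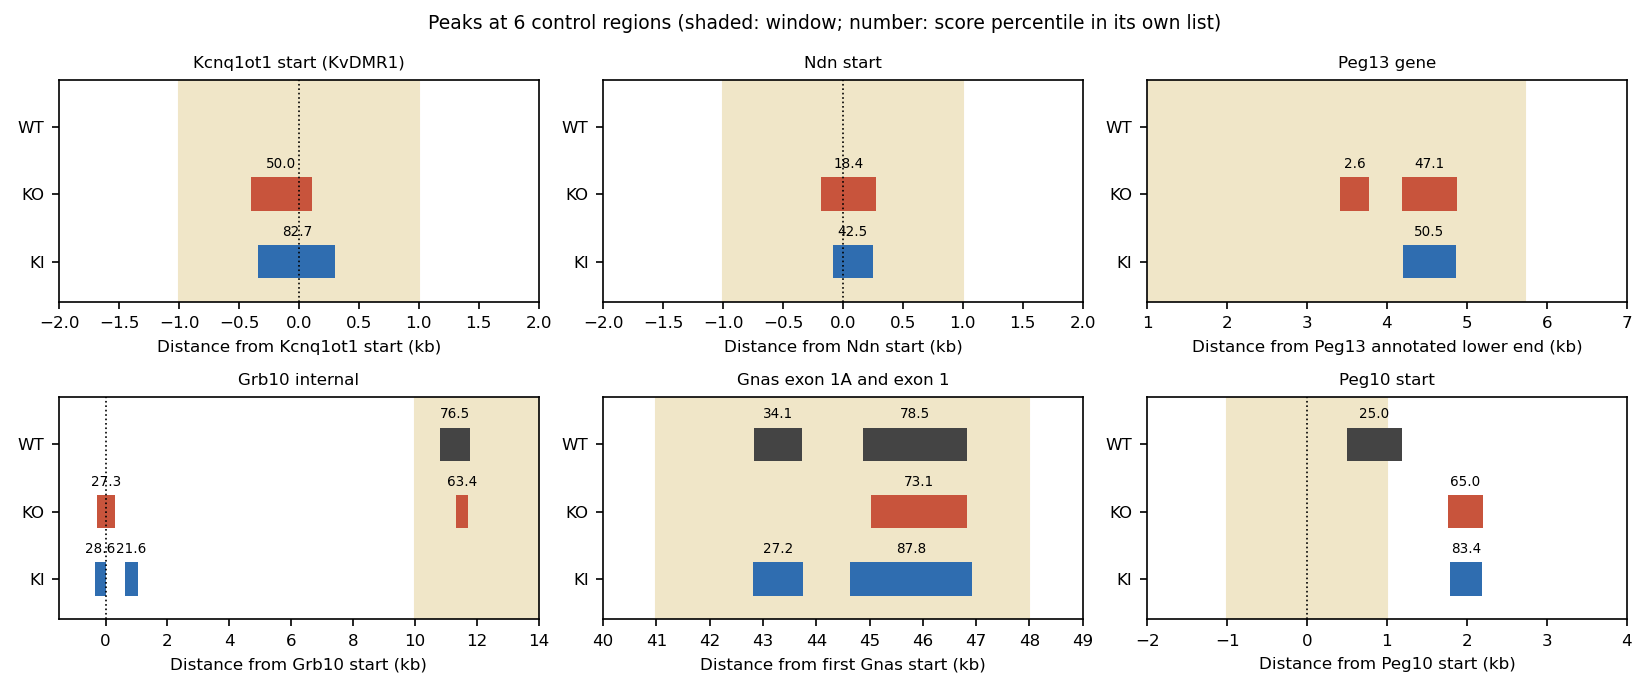
Each panel shows the peaks of the 3 libraries as bars against the distance in kb from a gene start (dotted line where in view; for Peg13 from the lower annotated end, for Gnas from its first start), with the window shaded and the score percentile above each bar. WT has no bar at Kcnq1ot1, Ndn and Peg13, KI has none in the internal Grb10 window, and KO has none at exon 1A of Gnas.

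Peg13 is a paternally expressed RNA inside Trappc9 on chromosome 15, and its promoter is a maternally methylated DMR. A peak at its upper annotated end was found in KO (chr15:72809790-72810478, score 83.59, percentile 47.1) and in KI (chr15:72809804-72810466, 94.15, 50.5) and not in WT. KO had a further peak beside it that ranked at 2.6. Trappc9, a trafficking complex subunit, had a peak in all libraries at its upper annotated end (88.8 in WT, 75.6 in KO and 89.9 in KI), in 2 regions of the gene body and 6016 bp past that end (96.7, 96.2 and 93.2). A KI peak in the body, chr15:72836903-72837551, ranked at 63.5 and had no counterpart in WT or KO.

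Peg10 and Sgce share a start region; Peg10 is a retrotransposon-derived gene expressed from the paternal copy and Sgce encodes epsilon-sarcoglycan. In WT a weak peak lay from 495 to 1193 bp inside Peg10 (percentile 25). In KO and KI that peak was missing and a stronger one began 1761 bp (KO, 65.0) and 1793 bp (KI, 83.4) inside the gene. The KI peak, chr6:4749099-4749499 with a score of 221.12, was the highest-ranked region of the set that WT lacked. The presence of a Peg10 peak therefore held in all libraries, and its place differed.

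In the Igf2r-Airn domain, Igf2r encodes the receptor that clears insulin-like growth factor 2, and the antisense RNA Airn, started inside Igf2r on the paternal copy, silences it. No region of this domain was shared by any pair of libraries. WT had 1 peak (percentile 12.3), KO had 2 (36.5 and 43.5) and KI had 6, the highest at chr17:12754584-12755051 (score 106.78, percentile 56.9). At the Airn start KI alone had a peak, chr17:12741197-12741496, with a percentile of 19.2. The Igf2r start, with 34 CpG, had none in any library.

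Zrsr1, a splicing-factor retrogene expressed from the paternal copy, lies inside Commd1, a regulator of copper transport. KI had 2 weak peaks there, at chr11:22971893-22972217 across the Zrsr1 start (27.7) and at an internal Commd1 start (28.1), and WT and KO had none. The Commd1 start was covered in WT (81.6), KO (71.4) and KI (82.3). The Rasgrf1 upstream region, where repeats direct paternal methylation, held a KI peak that scored 56.2 and ranked at 11, from -30194 to -29868 bp of the start and thus outside the 20 kb flank. At the start of Rasgrf1, a Ras exchange factor, KO alone had a peak (30.6).

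Peg3 encodes a paternally expressed zinc finger protein and shares a start region with Usp29, a ubiquitin protease gene. KI had a peak from 658 to 1106 bp inside Peg3 (score 83.25, percentile 43.2), and WT and KO had none near Peg3, Usp29 or Zim1. At the growth factor gene Igf2, KI had a single weak peak (29.6) near an internal start and the antisense transcript Igf2os. H19, the maternally expressed RNA downstream of it, and the CTCF-bound control region between them had none in any list.

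In the Dlk1-Meg3 domain, Dlk1 encodes a paternally expressed Notch-like membrane protein, and Meg3, Rian and Mirg are maternally expressed RNAs. All libraries had a peak upstream of Dlk1 (35.2 in WT, 53.1 in KO and 32.8 in KI), and WT (33.7) and KI (35.3) a second one. No list had a peak within 1 kb of the starts of Dlk1, Meg3, Rian or Mirg. A KI peak, chr12:109530250-109530584, at percentile 31.9, lay just beside the IG-DMR window and fell inside it once the window was widened by 1 kb. Another KI peak lay at the 3′ end of Mirg (46.9). Rtl1, a retrotransposon-derived gene of the paternal copy, and Rian had none within 20 kb in any list.

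In the Nnat, Nap1l5 and Zdbf2 domains the peaks lay away from the imprinted starts. Near Nnat, a neuronal membrane protein gene, the shared peak lay at an end of Blcap (41.7 in WT, 62.1 in KO and 70.6 in KI). Near Nap1l5 a flanking peak ranked at 46.6, 55.3 and 58.1, and near Zdbf2 one at an end of Eef1b2 ranked at 34.2, 68.5 and 37.6. Copg2, a coatomer subunit next to Mest, was covered at its start at 94.9 in WT, 73.7 in KO and 94.9 in KI. That region also touches an end of Tsga13. Mest itself, a paternally expressed hydrolase-like gene, and Plagl1, a zinc finger gene that inhibits growth, had none.

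Impact, on chromosome 18, encodes a translational regulator that counters GCN2 and is expressed from the paternal copy. At the annotated start WT had a weak peak (29.1) that a KI peak (50.2) overlapped beyond the edge of the window. A broad peak 18249 to 19936 bp inside the model ranked at 96.0 in WT, 96.2 in KO and 90.5 in KI, with widths of 1576, 1369 and 1641 bp. The germline DMR of Impact lies in its first intron; no coordinate for that DMR was used, so their overlap was not examined. A peak upstream, at an end of Osbpl1a, was present in WT (32.8) and KI (72.9) and absent from KO.

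The comparisons between libraries were then set beside those over the whole lists. Of the 29 WT peaks near imprinted genes, 8 were absent from KO (27.6%, Wilson 95% interval 14.7 to 45.7), against 25.5% of all WT peaks. Of the 40 KO peaks, 18 were absent from WT (45%, 30.7 to 60.2), against 32.4%. Intervals cover counting error over peaks alone. Both intervals held the whole-list value, which on so few peaks does not show that the shares are equal.

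Against KI, 4 of the 29 WT peaks were absent (13.8%, 5.5 to 30.6), with 13.1% over the whole list. Of the 61 KI peaks, 35 were absent from WT (57.4%, 44.9 to 69.0), with 46.5% overall. Between the mutants, 9 of 40 KO peaks were absent from KI (22.5%, 12.3 to 37.5; 16% overall) and 30 of 61 KI peaks from KO (49.2%, 37.1 to 61.4; 43.2% overall). Each of these intervals also holds its whole-list share. At equal list size the KI peaks absent from WT numbered 14 of 36 (38.9%; 25.3% overall) and those absent from KO 11 of 36 (30.6%; 25.5%). Cutting the KO list to that length left 38 nearby peaks. WT lacked 16 of them (42.1%; 28.7% overall) and KI lacked 13 (34.2%; 24.7%). KO in turn lacked 8 of the 29 nearby WT peaks (27.6%), slightly below the 28.7% overall. The WT peaks absent from KI then numbered 8 of 29 (27.6%; 24.6%), and 7 when 50% of a peak had to be covered.

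**Figure D4:**
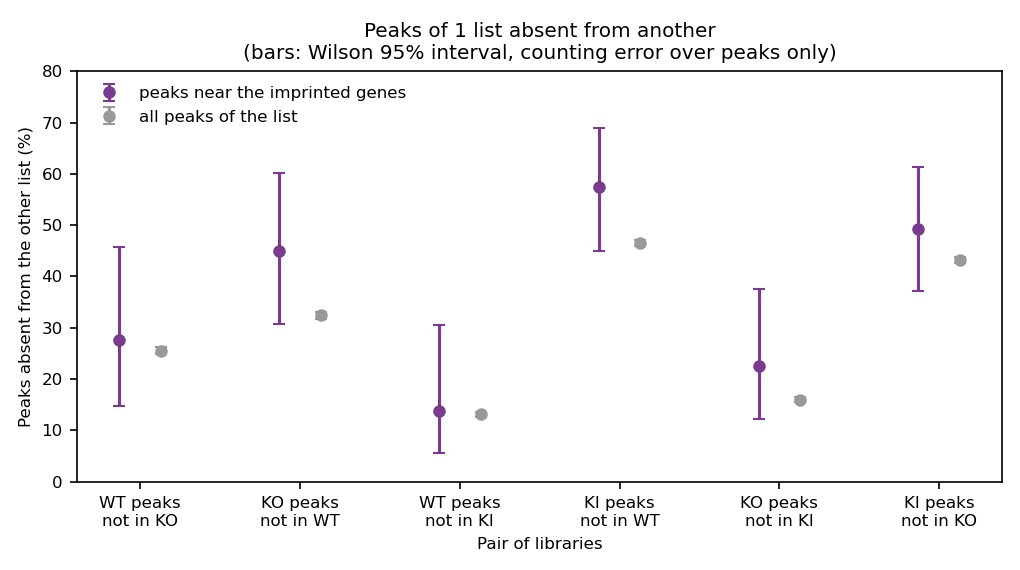
For each ordered pair of libraries the share of peaks (%) absent from the other list is plotted for peaks near the imprinted genes and for the whole list, with Wilson 95% intervals. All 6 intervals for the imprinted genes contain the whole-list share, from 13.8% beside 13.1% (WT not in KI) to 57.4% beside 46.5% (KI not in WT).

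By score, none of the 16 WT peaks above the median score was absent from KO (0%, 0 to 19.4; 5.15% over the list), and 8 of 13 at or below it were (61.5%; 45.9% over the list). Above the median, 1 of 16 WT peaks was absent from KI (6.25%; 1.20% over the list), the internal Grb10 region. In the same upper part of the lists, 3 of 22 KO peaks were absent from WT (13.6%; 8.86% over the list), at Peg10, Cd81 and Kcnq1ot1, where the KO score equalled the list median. So were 6 of 25 KI peaks (24.0%; 17.1%). At or below the median, 15 of 18 KO peaks were absent from WT (83.3%, 60.8 to 94.2; 56.0% over the list). That interval lay above the whole-list share. It was the only interval of either score part, over all ordered pairs of libraries, that did not hold its whole-list share. No allowance was made for the number of intervals read. Of the KI peaks at or below the median, 29 of 36 were absent from WT (80.6%, 65.0 to 90.2; 76.0% over the list).

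Gene-end peaks present in WT and missing from KO were found at 3 imprinted genes, Peg10, Sgce and Impact (7.50%, against 2.97% of all genes), and these 3 lacked one in KI too (1.03% of all genes). In the other direction, 5 genes had such a peak in KO but not in WT (12.5%, against 3.13%): Rasgrf1, Grb10, Kcnq1ot1, Ndn and Peg13. The latter 4 had one in KI as well, with Airn, Mirg, Peg3, Usp29 and Zrsr1 in KI alone, which made 9 in KI and none in WT (22.5%, against 6.06%). Between the mutants, 1 gene (Rasgrf1) had one in KO and none in KI (2.50%, against 1.12%), and 5 in KI and none in KO (12.5%, against 5.99%). The 6 shares were above those of all genes at this distance, on counts of 1 to 9. They were not set beside protein-coding genes alone, although 33 of the 40 genes are protein-coding. Gene-end peaks were more frequent in that class (44.2% in WT, 44.1% in KO and 51.4% in KI). The 6 shares did not all hold at other distances: the 3 in WT and not in KO became 1 at 500 bp and 1 at 2500 bp, and the 3 in WT and not in KI became 1 and 0. The 5 in KI and not in KO became 3 at 500 bp. Peg10 and Sgce, and Peg3 and Usp29, each share 1 peak. At equal list size the 9 became 6, the 5 in KI and not in KO became 3, and the 1 in KO and not in KI became 2.

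When the lists were merged, 72 regions lay near the imprinted genes, 20 of them (27.8%, 18.8 to 39.0) with a peak in all 3 lists, against 37.5% of all 32764 regions. Another 10 were shared by the mutants and lacked a WT peak (13.9%, 7.72 to 23.7; 10.7% of all). KI alone held 25 (34.7%, 24.8 to 46.2; 29.3%), KO alone 8 (11.1%; 7.99%), WT alone 3 (4.17%; 5.52%), and WT with KI 5 (6.94%; 7.71%). The Wilson interval of each class near the imprinted genes held the share of that class over the whole lists. At the edge of the 20 kb flank, the farthest region inside, at an end of Eef1b2, lay 18860 bp from Zdbf2, and the nearest outside 20779 bp from an imprinted gene on chromosome 15 (KI, percentile 39.4).

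Of the 40 genes, 32 had entries in the RefSeq promoter table; Impact, Sgce, H19, Kcnq1, Peg10, Rtl1, Trappc9 and Peg13 did not. The 32 had 47 distinct starts, some only a few bases apart. Their CpG number had a median of 15 in 300 bases (0 to 45), against 7 over all 32851 starts. The 29 starts with no peak within 1 kb in any list had a median of 13 CpG, whereas the 19057 such starts of all genes had 3. Starts with a peak in all 3 lists had 25 (5 starts) and 23.0 (9787 starts). Imprinted starts without a peak thus held more CpG than other starts without one, as a description with no test.

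**Figure D5:**
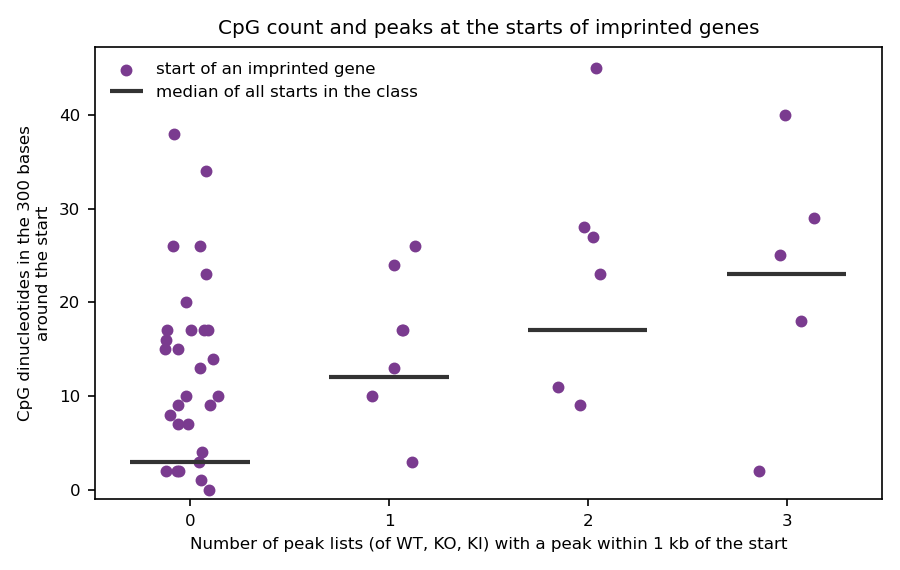
Each point is a RefSeq start of an imprinted gene, with the number of lists that have a peak within 1 kb on the horizontal axis and the CpG count of its 300-base window on the vertical axis; horizontal lines are medians over all starts of the class. At 0 lists the median of all starts is 3 CpG and the imprinted starts range from 0 to 38.

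Matches to 3 short motifs were counted on both strands of these windows. TGCCGC, the hexamer that ZFP57 binds when methylated, was found at 13 of 47 imprinted starts (27.7%), among them Mest, Nap1l5, Nnat, Plagl1, Snrpn and Meg3, and at 11.6% of all starts; a pair of the Mest starts lie a few bases apart and are both counted. GGNGGCAG, a part of the CTCF core, was found at 10 (21.3%; 12.6% of all), and GCCATNTT, a form of the YY1 site, at 2 (4.26%; 6.05%). With N as C, the CTCF fragment contains the reverse complement of the ZFP57 hexamer, so those counts can share bases. A match describes letters in a window and no bound site, and the imprinted starts differ from other starts in CpG number.

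A list of other imprinted genes gave 29 matched genes, with gene-end peaks at 9 of them in WT, at 12 in KO and at 12 in KI, and at 8 in all lists. Of all genes 24.3%, 24.5% and 29.4% had one in these lists, and of protein-coding genes 44.2%, 44.1% and 51.4%. WT lacked one that KO had at 4, beside 3.13% of all genes: Cdkn1c (percentile 49.6), the Gnas antisense RNA Gnasas1 (13.8), Ppp1r9a, a neuronal scaffold gene (11.4), and Qpct, a cyclase gene (6.3). The first 3 had one in KI as well (41.4, 36.9 and 66.5). H13, a signal peptide peptidase gene, had one in WT (24.2) and KI (51.9) and none in KO. Of these, Cdkn1c and Gnasas1 are the peaks already described near Slc22a18 and Gnas.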

How the data were processed

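Each deposited file was a list of 5 columns without a header, 1 per library, with peak coordinates, a name and, in column 5, the deposited score of that peak. Peak names are those MACS writes, and the score is read as 10 times the negative log10 of the p-value. The submitters' processing notes name mm10 as build and CASAVA as a tool. How reads were aligned, filtered, shifted and called is not given in the sources used here, and read depth is unknown. A deeper library gives more weak peaks, so scores were ranked within a list, and a minimum score common to the lists was used only as an alternative setting. The 12 RNA-seq samples were not analysed here.

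Peaks of chromosomes 1 to 19, X and Y were used, with positions written 1-based. Peaks of different lists were shared from 1 bp of overlap. Percentiles, overlaps, merged regions and motifs were computed with Python 3.11.15, pandas 2.3.3 and numpy 2.4.6, and the overlap functions were tested on simulated data. All 40 genes are accounted for. The regions named are each control region with a peak, the highest-ranked region of a domain, and regions missing from a list with a percentile of at least 50. Some are given by their percentiles alone. The planned Plagl1 window, set inside a longer gene model, was replaced by the RefSeq start. Of the planned cell type markers, 2 are not reported here and were left out of the counts. The genes, lists and windows were chosen with earlier results of these data known. Sequences are from RefSeq, GRCm38.p6.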

Additional observations from a re-analysis of the deposited data

How the results depend on the processing

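Of 84 counts and shares recomputed under other settings, 58 stayed within 1.5 times their main value and 26 did not. With each list cut to its 17316 highest scores, the KI peaks near the imprinted genes fell from 61 to 36, the KI peaks absent from WT from 35 to 14 and those absent from KO from 30 to 11. The WT peaks absent from KI rose from 4 to 8, the control windows covered in KI fell from 9 to 5, genes with a gene-end peak in KO and none in KI went from 1 to 2, and those in KI and none in KO from 5 to 3. The windows lost were Airn, Zrsr1, the Rasgrf1 upstream region and the Nesp antisense stretch of Gnas, while Kcnq1ot1, Ndn and Peg13 kept KO and KI peaks. With a score of at least 100, nearby peaks numbered 16 in WT, 15 in KO and 22 in KI, and the Kcnq1ot1 start kept its KI peak alone. The internal Grb10 window stayed covered in WT and KO. The Gnas window over exons 1A and 1 stayed covered in all lists, by the exon 1 peaks alone. The other planned windows, among them Ndn and Peg13, then had no peak. Of the nearby peaks with this score, 4 WT peaks (25%; 23.5% over the list) were absent from KO and 3 (18.8%; 6.44%) from KI. Of the KO peaks 3 (20%; 22.2%) were absent from WT and 2 (13.3%; 6.28%) from KI, and of the KI peaks 9 (40.9%; 42.3%) from WT and 9 (40.9%; 43.2%) from KO. Counting the gene body alone left 18 WT peaks, and requiring 50% of a peak to be covered made 7 WT peaks absent from KI. With a gene-end window of 500 bp, 5 genes had a WT peak, 1 had one in WT and none in KO, 1 in WT and none in KI and 3 in KI and none in KO; with 2500 bp the WT-only counts were 1 against KO and 0 against KI. Over protein-coding genes alone the gene-end background was 44.2% in WT, 44.1% in KO and 51.4% in KI. Widening the control windows by 1 kb brought Peg10 peaks in all lists, an Impact start peak in KI and an IG-DMR peak in KI into view. The window inside Impact was added after seeing the data. No paired analysis was possible because each genotype has 1 library and the results come from no test.

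The main limit is that a single library stands for each genotype, so none of these differences can be set against variation between animals. Read depth is unknown, so an absent peak shows only that the caller reported none, and list length differs between libraries. The deposited lists hold no summits or read counts, the parental copies are not separated, and the control windows are approximate.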

Other observations

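The factors that set or protect imprints were read through their own gene-end peaks. Of 20 such genes, 11 had one in WT, 11 in KO and 14 in KI, 10 of them in all lists. Of all genes 24.3%, 24.5% and 29.4% had a gene-end peak in these lists, and of protein-coding genes 44.2%, 44.1% and 51.4%. Trim28, the corepressor that ZFP57 recruits, ranked at 95 in WT, 90.5 in KO and 97.5 in KI, and the insulator gene Ctcf at 81.1, 81.1 and 88.9. The methylcytosine oxidase gene Tet2 ranked at 94.5, 95.2 and 95.2. These 3 examples of shared peaks were chosen after their values were seen. Zfp57 itself had a peak in KI alone (58.9), as did Tet1 (32.3). Setdb1, a histone methyltransferase gene, had one in KO (29.3) and KI (71.4), and the DNA methyltransferase gene Dnmt3b in WT (59.2) and KI (67.9). Dnmt1, Dnmt3a, Dnmt3l, Zfp445, Ctcfl and Dppa3 had none in any list.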
